A study of Mus musculus with 24 samples.

Results

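A pair of separately built lines of mouse embryonic fibroblasts (MEFs) that carry mutations in all 6 H3K9 lysine methyltransferase (KMT) genes, *6KO1* and *6KO2*, were compared with the *WT* cells of the same origin to describe the genes that changed in the same direction in both. The comparison used 9 of the 24 libraries of the RNA-seq series, with 3 biological replicates each of *WT*, *6KO1* and *6KO2*, and line was kept as a factor. *WT* cells carried a conditional *Eset1* (*Setdb1*) allele and an inducible Cre recombinase and had received no 4-hydroxytamoxifen (4-OHT). The mutant cells carried deleted *Eset1* together with mutant *Eset2* (*Setdb2*), *Suv39h1*, *Suv39h2*, *G9a* (*Ehmt2*) and *Glp* (*Ehmt1*), and were taken after 4-OHT. In *6KO1* the *Suv39h* genes were mutated first and *Eset2*, *G9a* and *Glp* last, whereas in *6KO2* the order was *Eset2*, then *G9a* and *Glp*, then the *Suv39h* genes. Each line was a single clone from the same parental cells. By the study's methods, an inducible Cre construct with puromycin resistance was put back into the mutated cells before 4-OHT, and they were kept in puromycin, so that these steps and the mutations cannot be told apart in a comparison with untreated *WT* cells. The treatment field of the sample labels names 4-OHT for every sample, and the titles, which mark the *WT* libraries as controls, were followed here. Of 47937 genes in the count table, 18565 were expressed highly enough to be tested, and 2906 of these were called in the same direction in both lines.

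Methylation of histone H3 at lysine 9 marks heterochromatin, the compact and mostly silent portion of the genome. SUV39H1 and SUV39H2 place the trimethyl mark on satellite repeats around centromeres, the SETDB1 enzyme places it on endogenous retroviruses to which it is brought by KRAB zinc finger proteins and their partner TRIM28, and the G9a/GLP pair places the dimethyl mark over broad euchromatic regions. The marks are read by HP1 proteins and are best known for silencing repeats, germline genes and clustered gene families outside the tissues that use them. Fibroblasts are connective tissue cells that make collagen and other matrix proteins, cholesterol-rich membranes and growth factors, and they can mount an interferon response when their sensors detect foreign nucleic acid.

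Total counts ranged from 27646204 to 34986131 in *WT*, from 30047275 to 33801466 in *6KO1* and from 27298706 to 30922283 in *6KO2*. Levels are given per library or as the mean ± SD of 3 libraries, in CPM, the count per 1000000 counts, with the gene library size multiplied by its TMM factor. *WT* replicate 2 stood apart from the other *WT* libraries. The chi-square statistic per gene between it and the other *WT* replicates was 57.0 and 68.3, against 2.24 to 10.9 for every other pair of replicates in the 3 groups. Without it, 2034 genes were upregulated and 619 downregulated in both lines, and the log2 fold changes of the named genes kept their sign. Over 147 named genes, the log2 fold change in the mean of both lines shifted by a median of 0.091 and at most 3.15 in size. Medians of 46 lists with 10 or more genes shifted by at most 0.66, and 2 of these medians changed sign. Some of the values that changed are given beside the results below. Expression counts cover whole genes and not the deleted or edited exons, so they do not test the mutations. Over the 6 targeted genes the log2 fold change ranged from -1.73 for *Suv39h1* to 0.14 for *Suv39h2* in *6KO1*, and from -1.39 for *Setdb2* to -0.56 for *Ehmt2* in *6KO2*, and 0 of 6 were called in both lines. At an unadjusted p under 0.05, 6 of 6 were lower in the mean of both lines, and DESeq2 also called 0. Without *WT* replicate 2, 1 of the 6 was called in both lines.

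More genes were gained than lost. A gene was called where its log2 fold change was at least 1 in size with an adjusted p of at most 0.01 (edgeR quasi-likelihood test). In *6KO1*, 3831 genes (20.6% of those tested) were upregulated and 1900 (10.2%) downregulated. In *6KO2*, 2848 (15.3%) were upregulated and 1000 (5.39%) downregulated. The equally weighted mean of both lines gave 3302 upregulated (17.8%) and 1332 downregulated genes (7.17%). Calls in both lines were upward for 2237 genes (12.0%) and downward for 669 (3.60%). All 6 mutant libraries lay above all 3 *WT* libraries for 2224 of the 2237 upregulated genes. They lay below them for 663 of the 669 downregulated genes. Over all 18565 genes tested, 4912 were separated upward in this way and 3939 downward. Such separation was therefore also common among genes not called in both lines, and adds little to the calls. Both lines were tested against the same *WT* libraries, so the shared counts are not independent of each other.

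The genes upregulated in both lines were mostly silent or near silent in *WT* cells. Their median *WT* level was 0.143 CPM, against 11.7 CPM over all genes tested. Of the 2237, 1002 (44.8%) were below 0.1 CPM in *WT*, compared with 8.89% of all genes tested, and 432 had no count in any *WT* library. Genes this low in *WT* could pass the expression filter only where another condition was higher, so their direction was largely fixed by the filter. At the other end, 171 of the upregulated genes stood between 10 and 100 CPM in *WT* and 12 at 100 CPM or more. Upregulated genes had median log2 fold changes of 3.65 in *6KO1* and 2.96 in *6KO2*, and 1031 of them rose by more than 3 in both. Downregulated genes came from a different range of expression. Their median *WT* level was 7.86 CPM, 85 of 669 exceeded 100 CPM in *WT*, and the median log2 fold changes were -2.14 and -1.64.

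**Figure D1:**
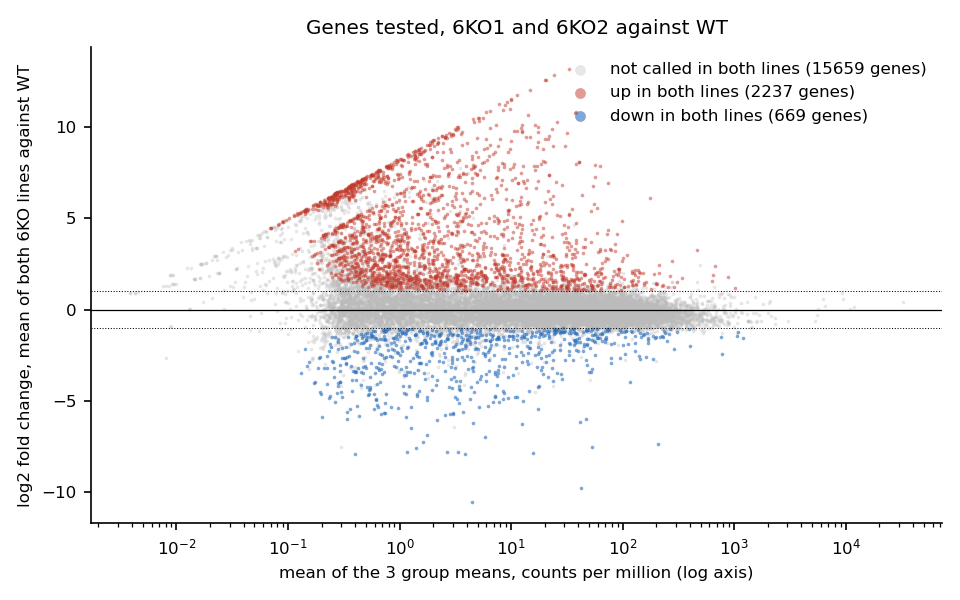
Mean of both mutant lines against *WT* for all 18565 genes tested. The x axis is the mean expression level and the y axis the log2 fold change; coloured points are the genes called in the same direction in both lines. The 2237 upregulated genes gather at low expression, and the 669 downregulated genes reach further into the highly expressed range.

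Among genes ranked by the smaller change of the lines, KRAB zinc finger genes led the rises, and their protein products bind DNA and recruit the silencing machinery. *Zfp985* had no count in any *WT* library, 65.3, 68.8 and 70.6 CPM in *6KO1* and 32.6, 25.9 and 33.0 in *6KO2*. *Zfp600* had no count in any *WT* library, 32.2, 33.4 and 32.7 CPM in *6KO1* and 29.2, 26.2 and 26.0 in *6KO2*. For both genes the groups were fully separated, and the fold change, computed against a floor of 3 counts over the *WT* libraries, was at least 1742-fold in *6KO1* and 783-fold in *6KO2* for *Zfp985* and at least 838-fold in *6KO1* and 695-fold in *6KO2* for *Zfp600*. Of 391 listed C2H2 zinc finger genes, 356 were tested, of which 28 (7.87%) rose and 6 fell in both lines, a smaller share of rises than the 12.0% over all genes, and the median log2 fold change of the list was 0.15 against 0.045 over all genes. The rises were clustered, and a segment of chromosome 4 (GRCm38, 147305674 to 147702553) held an unbroken run of 9 upregulated genes, among them *Zfp978*, *Zfp982*, *Zfp985* and *Zfp534*. *Zfp980* and *Zfp990*, genes of the same kind, were also on chromosome 4. *Zfp980* averaged 0 CPM in *WT*, 20.3 ± 0.854 in *6KO1* and 13.8 ± 0.434 in *6KO2*. *Zfp990* averaged 0 CPM in *WT*, 30.8 ± 2.77 in *6KO1* and 13.6 ± 1.69 in *6KO2*. These genes are close copies of each other, and reads can be divided wrongly among such copies. Large rises were not limited to this family. *Akr1c12*, an aldo-keto reductase, had no count in any *WT* library, 9.10, 10.9 and 11.1 CPM in *6KO1* and 8.83, 7.18 and 6.72 in *6KO2*. *Hs3st1*, which adds a sulfate group to heparan sulfate, had 0, 0 and 0.0793 CPM in *WT*, 43.6, 46.7 and 47.6 in *6KO1* and 33.1, 31.0 and 30.6 in *6KO2*. As *WT* held 2 counts in all, the rise of *Hs3st1* was 1761-fold (95% counting interval 487 to 14541) in *6KO1* and 1212-fold (336 to 10010.0) in *6KO2*. *Pcdh10* and *Cdh19*, cell adhesion genes of the cadherin superfamily, rose from 0 by at least 546-fold in *6KO1* and 106-fold in *6KO2* and by at least 654-fold in *6KO1* and 97.4-fold in *6KO2*, respectively.

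Upregulated genes lay side by side in the genome. Of 2219 upregulated genes with a position, 1004 (45.2%) had another upregulated gene as the next tested gene, compared with 18.1% of the other tested genes. The corresponding shares were 28.7% and 5.96% for downregulated genes. Several of the longest runs without a gap were clusters of related genes. On chromosome 1 (173350879 to 174248450), 14 neighbours rose, and most were interferon-inducible DNA sensor genes of the *Ifi200* family, with *Aim2* at the edge. A run of 13 on chromosome 14 (41348609 to 43115190) held numbered Gm and Rik entries. On chromosome 13, 13 neighbours between 32881434 and 33671581 were mostly serine protease inhibitors of the *Serpinb* family, and 10 neighbours between 27057570 and 28023559 were prolactin family genes that are normally used by the placenta and pituitary. A run of 10 on chromosome 7 (104218793 to 104507849) held *Trim5*, *Trim12*, *Trim30* and *Trim34* genes, which act against viruses, and *Slfn1* to *Slfn4* and their neighbours formed a run of 7 on chromosome 11 (83028130 to 83260960). The 6 *Oas* genes between 120730333 and 120907521 on chromosome 5 and 5 carboxylesterase entries of the *Ces2* group on chromosome 8 (104847068 to 104969537) rose together as well.

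**Figure D2:**
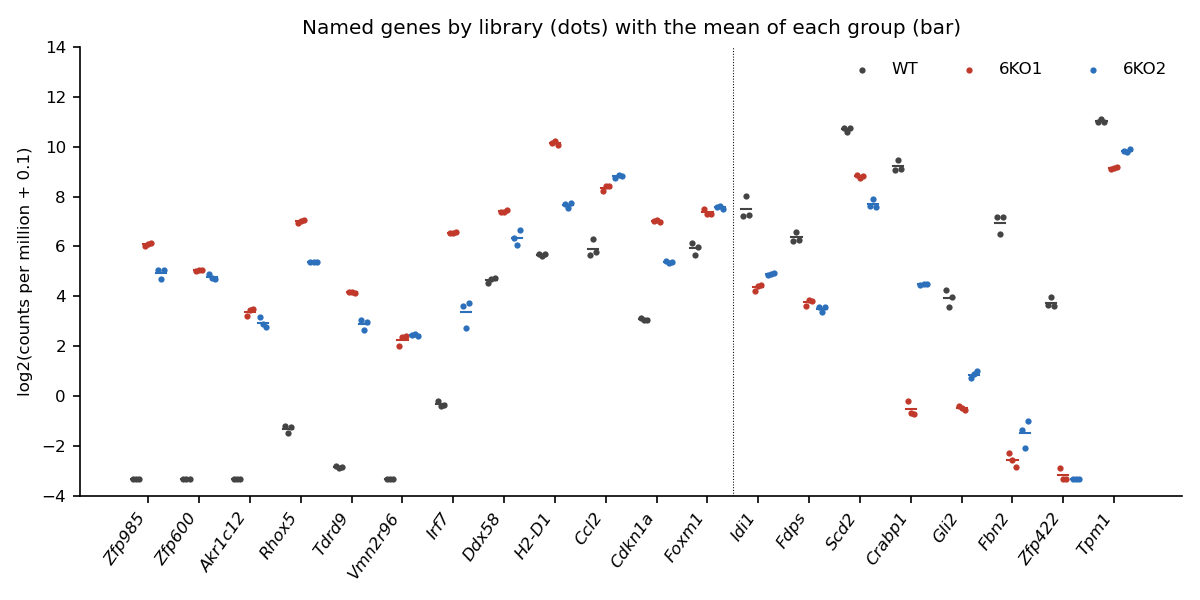
Expression of 20 named genes in each of the 9 libraries, as log2(CPM + 0.1). Points are single libraries, coloured by group (*WT*, *6KO1*, *6KO2*), and bars are group means. For the first 12 genes all 6 mutant libraries lie above *WT*, and for the last 8 all lie below.

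Interferon-stimulated genes were the list with the most members upregulated in both lines. Interferon acts on a promoter element, the ISRE, and induces sensors, nucleases and restriction factors against viruses. Of 68 listed genes, 65 were tested, 51 (78.5%) rose in both lines and 0 fell, against 12.0% up and 3.60% down over all genes. At an unadjusted p under 0.05 for the mean of both lines, 65 were higher and 0 lower, DESeq2 also called 0 down, and the median log2 fold change was 3.96 in *6KO1* and 2.56 in *6KO2*. *Irf7*, the transcription factor that amplifies the response, had 0.758, 0.649 and 0.674 CPM in *WT*, 92.0, 93.0 and 94.4 in *6KO1* and 12.0, 6.59 and 13.2 in *6KO2*. Its log2 fold change was 7.06 (SE 0.33) in *6KO1* and 3.93 (SE 0.37) in *6KO2* (adjusted p = 6.7e-15 and 3.4e-09, edgeR), and the difference between the lines was itself significant, at 3.13 (SE 0.23, adjusted p = 9.1e-11, edgeR). *Irf9* went from 14.3 ± 0.593 CPM in *WT* to 93.5 ± 2.60 in *6KO1* and 30.2 ± 6.39 in *6KO2*. The *6KO2* change of *Irf9* was close to the threshold, at 2.71 and 1.08 on the log2 scale for *6KO1* and *6KO2*, and its call was lost without *6KO2* replicate 1 or 3. *Oas3*, which makes the messenger that activates RNase L, averaged 0.0898 ± 0.0416 CPM in *WT*, 109 ± 4.27 in *6KO1* and 5.32 ± 2.22 in *6KO2*. *Iigp1*, a GTPase that attacks vacuoles of intracellular parasites, averaged 0.0385 ± 0.0397 CPM in *WT*, 28.0 ± 1.03 in *6KO1* and 3.34 ± 1.5 in *6KO2*. *Gbp5*, a guanylate-binding protein, was the exception among these in being somewhat higher in *6KO2*, with 0.0132 ± 0.0229 CPM in *WT*, 1.46 ± 0.352 in *6KO1* and 2.45 ± 0.980 in *6KO2*, although the difference of -0.76 on the log2 scale was not called.

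Promoter sequences were read for 3 interferon-stimulated genes that rose in both lines, to show an element held by many promoters of the group. They are from RefSeq (GRCm38.p6), written 5′ to 3′ on the strand of the gene, with matches to the ISRE half-site GAAANNGAA, here in its reverse complement, in capitals. *Ifit1* holds 3 matches, of which 2 overlap and form 1 stretch of capitals. *Ifit1*, which binds foreign RNA caps, is shown for chr19:34640755-34640838 on the plus strand, *Rsad2* (viperin) for chr12:26456538-26456596 on the minus strand, and *Trim30a* for chr7:104465195-104465253 on the minus strand.
Ifit1: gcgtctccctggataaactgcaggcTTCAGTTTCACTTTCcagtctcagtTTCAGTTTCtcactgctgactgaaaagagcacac
Rsad2: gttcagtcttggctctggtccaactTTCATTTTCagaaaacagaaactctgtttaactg
Trim30a: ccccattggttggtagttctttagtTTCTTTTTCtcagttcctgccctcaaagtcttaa
The match nearest to the listed gene start begins 84 bases upstream in *Ifit1*, 119 in *Rsad2* and 35 in *Trim30a*. *Ifit1* had 25.8, 40.2 and 26.2 CPM in *WT*, 241, 269.7 and 283 in *6KO1* and 67.1, 53.1 and 82.1 in *6KO2*. Its log2 fold changes were 3.10 and 1.13, and its shared call was lost without *6KO2* replicate 3. *Rsad2* averaged 11.1 ± 0.960 CPM in *WT*, 168 ± 5.06 in *6KO1* and 29.2 ± 8.75 in *6KO2*, and *Trim30a* 0.171 ± 0.0870 CPM in *WT*, 177 ± 7.77 in *6KO1* and 9.14 ± 2.66 in *6KO2*. The 3 genes are those with the highest mean level among members that rose in both lines and hold the half-site upstream of the start. Of 49 interferon-stimulated genes with a promoter in the table, 30 (61.2%) held the half-site on either strand within 250 bases before to 50 bases after the start, compared with 8.31% of all 19387 promoters. The share was 11.3% of 1371 promoters of genes upregulated in both lines, 7.27% of 344 of downregulated genes and 7.20% of 11111 of all tested genes.

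Sensors of foreign nucleic acid rose as well. Of 26 tested pattern recognition genes, 12 (46.2%, against 12.0% over all genes) rose and 0 fell (edgeR, and 0 by DESeq2), with a median log2 fold change of 1.33 and 1 gene lower at an unadjusted p under 0.05. *Ddx58*, which encodes the RNA sensor RIG-I, had 23.1, 25.9 and 26.3 CPM in *WT*, 166, 167 and 176 in *6KO1* and 81.5, 65.4 and 100.2 in *6KO2*. The log2 fold change was 2.76 (SE 0.15) in *6KO1* and 1.71 (SE 0.14) in *6KO2* (adjusted p = 6.8e-14 and 4.9e-10, edgeR). *Tlr3*, the endosomal sensor of double-stranded RNA, had 3.24, 3.14 and 2.70 CPM in *WT*, 22.4, 23.2 and 23.8 in *6KO1* and 11.4, 10.4 and 14.4 in *6KO2*. All mutant libraries lay above *WT* for both genes. *Zbp1*, which senses Z-form nucleic acid, rose from 0.390 ± 0.0391 CPM in *WT* to 10.5 ± 1.02 in *6KO1* and 2.03 ± 0.699 in *6KO2*, and *Aim2*, which senses cytosolic DNA, from 4.03 ± 0.825 CPM in *WT* to 42.9 ± 2.89 in *6KO1* and 24.1 ± 2.81 in *6KO2*. *Tlr4*, the receptor for bacterial lipopolysaccharide, was called in *6KO1* alone, with log2 fold changes of 1.11 and 0.76, and the difference between the lines was 0.35 (SE 0.10, adjusted p = 0.00592, edgeR). Genes of MHC class I antigen presentation followed, with 11 of 21 (52.4%) upregulated and 0 downregulated by edgeR or DESeq2, and 0 lower at an unadjusted p under 0.05. Their median log2 fold change was 3.23, or 2.96 without *WT* replicate 2. *H2-D1*, a classical class I heavy chain, had 51.1, 49.3 and 51.6 CPM in *WT*, 1144, 1186 and 1078 in *6KO1* and 207, 185 and 211 in *6KO2*. Its level in *6KO1* exceeded that in *6KO2* by 2.50 (SE 0.085, adjusted p = 7.6e-17, edgeR) on the log2 scale. *Nlrc5*, the activator of class I genes, averaged 1.03 ± 0.0480 CPM in *WT*, 142 ± 10.9 in *6KO1* and 21.9 ± 2.90 in *6KO2*, and the immunoproteasome genes *Psmb8* and *Psmb9* and the peptide transporters *Tap1* and *Tap2* were also upregulated in both lines.

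Chemokines and cytokines moved in both directions. Of 35 tested, 17 (48.6%) rose and 3 (8.57%) fell, against 12.0% and 3.60% over all genes. Without *WT* replicate 2, 14 rose. Of the 63 listed, 31 had no count in *WT*, and such genes could pass the expression filter only where another condition was higher. *Ccl2*, which attracts monocytes, had 50.7, 78.6 and 54.4 CPM in *WT*, 301, 343 and 344 in *6KO1* and 429, 461 and 454 in *6KO2*, and its log2 fold change was 2.43 (SE 0.44) in *6KO1* and 2.87 (SE 0.45) in *6KO2* (adjusted p = 3.6e-05 and 7.8e-06, edgeR). *Ccl20* rose more in *6KO2*, with 0.0361 ± 0.0625 CPM in *WT*, 10.3 ± 0.348 in *6KO1* and 41.1 ± 8.69 in *6KO2*. *Csf1*, the growth factor of macrophages, went from 224 ± 33.7 CPM in *WT* to 1104 ± 62.2 in *6KO1* and 604 ± 73.6 in *6KO2*. The upregulated genes also included *Il6*, *Cxcl1*, *Cxcl10* and *Ccl5*. On the other side, *Cxcl14* fell from 11.1 ± 1.08 CPM in *WT* to 0 in *6KO1* and 0.435 ± 0.370 in *6KO2*, and *Tnfsf11*, which encodes RANKL, fell from 4.58 ± 0.906 CPM in *WT* to 0.0346 ± 0.0347 in *6KO1* and 0.704 ± 0.192 in *6KO2*. For *Cxcl14*, 0 counts were found in *6KO1*, a fall of at least 309-fold. Of 7 tested leukocyte markers, 3 (*Itgam*, *Ptprc* and *Lyz2*) rose, and *Adgre1* was at 0 in all 9 libraries. The summed level of the 12 leukocyte markers was 6.67 to 7.54 CPM in *WT*, 25.7 to 28.4 in *6KO1* and 9.48 to 11.2 in *6KO2*, and its part in these results was not tested. In bulk RNA, a change in the number of cells of a type and a change in the RNA per cell cannot be told apart.

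Part of the germline genes and most two-cell stage genes tested rose in both lines. Germline genes encode proteins of meiosis and of the piRNA pathway, which represses transposons in the testis. Of 85 listed, 33 were tested, 13 (39.4%, against 12.0% over all genes) rose and 0 fell by edgeR or DESeq2. At an unadjusted p under 0.05, 3 were lower, and 20 were not called in both lines. Of the 85, 44 had no count in *WT*. Members silent in *WT* could pass the expression filter only where another condition was higher, so the absence of falls was partly fixed by the filter. The summed level of the list was 161 to 194 CPM in *WT*, 298 to 302 in *6KO1* and 217 to 224 in *6KO2*. *Tdrd9*, a helicase of the piRNA pathway, had 0.0421, 0.0361 and 0.0396 CPM in *WT*, 17.7, 17.9 and 17.5 in *6KO1* and 8.13, 6.10 and 7.77 in *6KO2*. *Dppa2* and *Dppa4*, partners that activate genes of the early embryo, had no *WT* counts. *Dppa2* averaged 0 CPM in *WT*, 1.42 ± 0.262 in *6KO1* and 0.519 ± 0.120 in *6KO2*, and *Dppa4* 0 CPM in *WT*, 3.50 ± 0.598 in *6KO1* and 0.664 ± 0.0808 in *6KO2*. *Stag3*, *Piwil2* and *Meiob* were upregulated too. Of 15 tested genes of the two-cell stage, 12 (80.0%) rose, among them *Zscan4b*, *Zscan4c*, *Zscan4f* and 5 *Usp17l* genes. Of the 26 listed, 7 had no count in *WT*, and the same limit of the filter applies to them. *Zscan4b* had 0, 0.0361 and 0 CPM in *WT*, 0.834, 0.722 and 0.464 in *6KO1* and 0.163, 0.497 and 0.742 in *6KO2*. These are multicopy genes with uncertain read assignment. Removal of *WT* replicate 2 left 10 germline and 10 two-cell stage genes upregulated.

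X-linked genes of the cancer-testis type gave 6 upregulated of 9 tested (66.7%, against 12.0% over all genes), with 65 listed. Of the 65, 60 had no count in *WT*. Members silent in *WT* could be tested only where another condition was higher, so their direction was largely fixed by the filter. *Rhox5*, a homeobox gene of the Sertoli cell, had 0.337, 0.253 and 0.317 CPM in *WT*, 121, 130.4 and 135 in *6KO1* and 41.0, 41.1 and 41.8 in *6KO2*. The log2 fold change was 8.72 (SE 0.14) in *6KO1* and 7.08 (SE 0.15) in *6KO2* (adjusted p = 4.9e-23 and 1.4e-20, edgeR), with no overlap between the groups. *Xlr* averaged 0.0240 ± 0.0417 CPM in *WT*, 10.1 ± 1.04 in *6KO1* and 8.26 ± 1.16 in *6KO2*, *Mageb2* 0 CPM in *WT*, 6.83 ± 0.514 in *6KO1* and 1.83 ± 0.367 in *6KO2*, and *Nxf3*, a member of the RNA export factor family, 0.0120 ± 0.0208 CPM in *WT*, 16.6 ± 0.286 in *6KO1* and 15.2 ± 0.134 in *6KO2*. Receptors of the nose were upregulated as well, although only 40 of 1390 listed olfactory and vomeronasal receptor genes were high enough to be tested. Of these 40, 26 (65.0%) rose and 0 fell by edgeR or DESeq2, with 0 lower at an unadjusted p under 0.05. Of the 1390, 1361 had no count in *WT*. Such genes could pass the expression filter only where another condition was higher, so the absence of falls was largely fixed by the filter. *Vmn2r96* had no count in any *WT* library, 3.92, 5.02 and 5.14 CPM in *6KO1* and 5.39, 5.51 and 5.15 in *6KO2*, which is a rise of at least 119.7-fold in *6KO1* and 137-fold in *6KO2*. *Vmn1r212* followed with no count in any *WT* library, 3.20, 2.79 and 3.48 CPM in *6KO1* and 2.98, 2.71 and 2.84 in *6KO2*, and *Olfr792* with no count in any *WT* library, 1.84, 2.24 and 1.74 CPM in *6KO1* and 0.981, 1.45 and 0.960 in *6KO2*.

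Genes of the synapse and of excitable membranes were also among those that rose. Of 45 tested synapse genes, 19 (42.2%) rose and 1 (2.22%) fell, against 12.0% and 3.60% over all genes. Of the 125 listed, 73 had no count in *WT*. Such genes could pass the expression filter only where another condition was higher, so their direction was largely fixed by the filter. *Nlgn1*, a postsynaptic adhesion protein, had no count in any *WT* library, 3.44, 2.89 and 2.94 CPM in *6KO1* and 4.86, 5.15 and 5.50 in *6KO2*. *Gabra4*, a GABA receptor subunit, had no count in any *WT* library, 1.63, 2.48 and 2.90 CPM in *6KO1* and 1.92, 1.67 and 1.70 in *6KO2*, and *Nrxn3* averaged 0 CPM in *WT*, 0.685 ± 0.115 in *6KO1* and 0.343 ± 0.0690 in *6KO2*. The one downregulated gene was *Shank3*, a postsynaptic scaffold, with 16.2 ± 3.89 CPM in *WT*, 0.551 ± 0.126 in *6KO1* and 6.41 ± 1.83 in *6KO2*. The median log2 fold change of the synapse list was the one that moved most without *WT* replicate 2, by 0.66. Of 72 tested ion channel genes, 16 (22.2%) rose and 5 (6.94%) fell, and 81 of the 178 listed had no count in *WT*. *Kcnk10*, a leak potassium channel, averaged 0.0906 ± 0.0155 CPM in *WT*, 5.61 ± 0.335 in *6KO1* and 2.34 ± 0.294 in *6KO2*, and was higher in *6KO1*. The calcium channel genes *Cacna1c* and *Cacna1g* fell. *Cacna1c* averaged 21.3 ± 4.68 CPM in *WT*, 0.229 ± 0.0509 in *6KO1* and 3.98 ± 0.228 in *6KO2*, and *Cacna1g* 8.93 ± 2.96 CPM in *WT*, 0.294 ± 0.132 in *6KO1* and 1.19 ± 0.532 in *6KO2*. The neural marker gene *Dcx* was at 0 in all 9 libraries, and the summed neural markers were 481 to 654 CPM in *WT*, 465 to 528 in *6KO1* and 601 to 656 in *6KO2*.

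A smaller set of upregulated genes was already abundant in *WT* cells. *Rnf213*, an interferon-inducible ubiquitin ligase, had 375, 252 and 379.6 CPM in *WT*, 1419, 1303 and 1344 in *6KO1* and 997, 781 and 1148 in *6KO2*. *Resf1*, whose product works with SETDB1 in silencing retroelements, had 173, 173 and 178 CPM in *WT*, 1127, 1126 and 1161 in *6KO1* and 669, 745 and 719 in *6KO2*. Both were separated from *WT* in all libraries, with log2 fold changes of 2.71 (SE 0.072) in *6KO1* and 2.03 (SE 0.071) in *6KO2* for *Resf1* (adjusted p = 2.6e-19 and 7.1e-17, edgeR). *Atf7ip*, the partner that stabilizes SETDB1, rose from 71.2 ± 11.8 CPM in *WT* to 308 ± 17.2 in *6KO1* and 254 ± 1.84 in *6KO2*, and *Sun2* of the nuclear envelope from 71.6 ± 11.5 CPM in *WT* to 185 ± 13.4 in *6KO1* and 208 ± 2.66 in *6KO2*. *Fth1*, the ferritin heavy chain, rose from 262 ± 17.0 CPM in *WT* to 1071 ± 10.7 in *6KO1* and 549.7 ± 24.7 in *6KO2*. *Ezr*, which links membrane to actin, rose from 132 ± 8.40 CPM in *WT* to 443 ± 15.2 in *6KO1* and 440.3 ± 28.2 in *6KO2*, and *Lgals3*, a galectin, from 133 ± 13.7 CPM in *WT* to 514 ± 26.5 in *6KO1* and 281 ± 2.48 in *6KO2*.

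Adhesion and protease genes joined the upregulated side. Of 28 tested laminin and integrin genes, 8 (28.6%) rose and 2 (7.14%) fell, against 12.0% and 3.60% over all genes. *Lama3*, a laminin chain of epithelial basement membrane, averaged 0.0401 ± 0.0422 CPM in *WT*, 7.19 ± 0.884 in *6KO1* and 0.779 ± 0.152 in *6KO2*, and the leukocyte integrin gene *Itgam* 0 CPM in *WT*, 2.45 ± 0.164 in *6KO1* and 0.843 ± 0.222 in *6KO2*. Of 39 tested matrix protease genes and inhibitors, 10 (25.6%) rose and 3 (7.69%) fell. *Mmp24* averaged 0.348 ± 0.0742 CPM in *WT*, 12.8 ± 1.42 in *6KO1* and 8.13 ± 0.992 in *6KO2*, *Mmp10* 0.194 ± 0.0683 CPM in *WT*, 3.17 ± 0.622 in *6KO1* and 4.82 ± 1.20 in *6KO2*, and *Mmp13*, a collagenase, 0 CPM in *WT*, 0.181 ± 0.0476 in *6KO1* and 1.52 ± 0.337 in *6KO2*. *Mmp13* was higher in *6KO2*, with a log2 difference (*6KO1* minus *6KO2*) of -3.05 (SE 0.33, adjusted p = 9.6e-08, edgeR). Glutathione transferases of the alpha class also rose, *Gsta4* from 9.20 ± 2.25 CPM in *WT* to 63.0 ± 5.63 in *6KO1* and 34.8 ± 2.45 in *6KO2* and *Gsta1* from 0.0774 ± 0.0348 CPM in *WT* to 29.4 ± 1.28 in *6KO1* and 7.59 ± 0.804 in *6KO2*. These 2 genes stand next to each other in a run of 5 upregulated genes on chromosome 9 (78182774 to 78368177).

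On the downregulated side, the cholesterol pathway was the most complete group. Cells make cholesterol from acetyl-CoA through mevalonate and lanosterol, and the transcription factor SREBP2, encoded by *Srebf2*, raises the enzymes when sterol is scarce. Of 25 listed genes, 24 were tested, 19 (79.2%) fell in both lines and 0 rose by edgeR or DESeq2. At an unadjusted p under 0.05, 23 were lower and 0 higher. Over all genes 3.60% fell, and the list had a median log2 fold change of -2.29 in *6KO1* and -1.90 in *6KO2*. The count was 19 without *WT* replicate 2 also. At the start of the pathway, *Hmgcs1*, which makes HMG-CoA, had 371, 507 and 400.0 CPM in *WT*, 56.3, 62.8 and 60.8 in *6KO1* and 75.1, 73.1 and 71.1 in *6KO2*. *Idi1*, which isomerizes the isoprenoid building block, had 148, 258 and 152 CPM in *WT*, 18.3, 21.4 and 21.6 in *6KO1* and 28.4, 29.4 and 30.3 in *6KO2*. Both fell without overlap, with log2 fold changes of -2.83 (SE 0.083) in *6KO1* and -2.54 (SE 0.082) in *6KO2* for *Hmgcs1* (adjusted p = 1.2e-18 and 1.4e-17, edgeR) and -3.19 in *6KO1* and -2.67 in *6KO2* for *Idi1*. *Fdps*, which makes farnesyl diphosphate, fell from 82.4 ± 11.4 CPM in *WT* to 13.5 ± 1.31 in *6KO1* and 11.2 ± 0.857 in *6KO2*. A late step fell as well. *Nsdhl*, which removes methyl groups from the sterol ring, went from 55.5 ± 7.98 CPM in *WT* to 7.22 ± 0.435 in *6KO1* and 8.94 ± 0.851 in *6KO2*. The feedback gene *Insig1* was among the 19. *Srebf2* itself had log2 fold changes of -1.27 and -0.77 and was called in *6KO1* alone, with a difference between the lines of -0.50 (SE 0.10, adjusted p = 1.3e-04, edgeR).

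The promoter of *Hmgcs1* is shown for chr13:119690189-119690247 on the plus strand (RefSeq, GRCm38.p6), with the sterol regulatory element TCACNCCAC in capitals, since it was the downregulated member of the list in which the letters were found.
Hmgcs1: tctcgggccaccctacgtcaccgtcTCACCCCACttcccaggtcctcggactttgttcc
The match begins 137 bases upstream of the listed start. Of 12 downregulated cholesterol genes with a promoter in the table, 1 (8.33%) held this exact element on either strand, compared with 1.23% of all 19387 promoters. This motif was added after the data were seen.

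Fatty acid synthesis, a list added after the values were seen, went down in part. Of 24 tested genes, 6 fell and 2 rose. *Scd2*, which desaturates stearoyl-CoA, had 1721, 1540.3 and 1728 CPM in *WT*, 462, 433 and 449.5 in *6KO1* and 197, 241 and 193 in *6KO2*. *Elovl6*, which elongates palmitate, had 127, 137 and 133 CPM in *WT*, 10.9, 10.1 and 10.8 in *6KO1* and 17.6, 17.6 and 18.7 in *6KO2*. Their log2 fold changes were -1.89 in *6KO1* and -2.98 in *6KO2* for *Scd2* and -3.64 in *6KO1* and -2.88 in *6KO2* for *Elovl6*, again with all mutant libraries below *WT*. *Scd1* went from 299.5 ± 7.60 CPM in *WT* to 136 ± 2.06 in *6KO1* and 74.2 ± 4.28 in *6KO2*, and *Acly*, which supplies cytosolic acetyl-CoA, from 495 ± 19.7 CPM in *WT* to 198 ± 3.45 in *6KO1* and 229 ± 0.323 in *6KO2*. *Fasn*, the fatty acid synthase, had log2 fold changes of -1.33 and -0.68 and was called in *6KO1* alone. *Srebf1*, which encodes SREBP1, had log2 fold changes of -0.12 and -0.24 and was not called in either line.

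Some matrix genes of the fibroblast fell in both lines, but their summed level was below *WT* without overlap in *6KO1* alone. Of 43 tested matrix proteins other than collagens, 8 (18.6%) fell and 3 (6.98%) rose, against 3.60% and 12.0% over all genes. The median log2 fold change of this list was -0.53 in *6KO1* and 0.10 in *6KO2*. Its summed level was 9715 to 11021 CPM in *WT*, 8057 to 8733 in *6KO1* and 11358 to 11429 in *6KO2*. *Fbn2*, an elastic fibre protein, had 146, 89.9 and 143 CPM in *WT*, 0.104, 0.0688 and 0.0386 in *6KO1* and 0.286, 0.135 and 0.393 in *6KO2*. Its log2 fold change was -10.69 in *6KO1* and -8.83 in *6KO2*, with the groups far apart. *Thbs2*, a matrix protein that restrains vessel growth, fell from 13.3 ± 1.46 CPM in *WT* to 0.214 ± 0.0871 in *6KO1* and 0.144 ± 0.0665 in *6KO2*, and *Ogn*, a small proteoglycan, from 28.8 ± 9.80 CPM in *WT* to 6.79 ± 0.541 in *6KO1* and 2.26 ± 0.400 in *6KO2*. *Serpinf1*, an antiangiogenic serpin, averaged 121 ± 2.04 CPM in *WT*, 2.91 ± 0.141 in *6KO1* and 0.994 ± 0.377 in *6KO2*. Among 28 tested collagen genes, 5 (17.9%) rose and 1 (3.57%) fell, against 12.0% and 3.60% over all genes. Their median log2 fold changes were 0.42 in *6KO1* and 0.34 in *6KO2*. The summed collagens were 8428 to 10782 CPM in *WT*, 6496 to 7456 in *6KO1* and 8348 to 8952 in *6KO2*. The collagen gene that fell, *Col1a2*, a chain of type I collagen, had 2025, 1549 and 1974 CPM in *WT*, 710.5, 624 and 659 in *6KO1* and 650.1, 751 and 679.9 in *6KO2*. The collagens that rose were mostly low in *WT*, such as *Col28a1* with 0 CPM in *WT*, 5.36 ± 0.887 in *6KO1* and 0.489 ± 0.00846 in *6KO2*, with the exception of *Col12a1*, which went from 77.8 ± 10.7 CPM in *WT* to 179 ± 3.15 in *6KO1* and 212 ± 5.19 in *6KO2*. *Tpm1*, a tropomyosin of stress fibres, averaged 2104 ± 89.1 CPM in *WT*, 568 ± 13 in *6KO1* and 917 ± 31.3 in *6KO2*. Among the fibroblast markers, *Thy1* fell from 7.86 ± 0.423 CPM in *WT* to 0.0116 ± 0.0201 in *6KO1* and 0.0695 ± 0.0844 in *6KO2*, *Fap* rose, with 0 CPM in *WT*, 3.30 ± 0.228 in *6KO1* and 0.821 ± 0.424 in *6KO2*, and *Lum* was at 0 in all 9 libraries. Of 17 tested fibroblast markers, 2 fell and 1 rose in both lines, and 14 were not called in both. At an unadjusted p under 0.05 for the mean of both lines, 12 were lower and 1 higher. The summed level of the 18 fibroblast markers was 9412 to 11098 CPM in *WT*, 5944 to 6483 in *6KO1* and 8418 to 8599 in *6KO2*. This sum was below *WT* without overlap in both lines.

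Growth factor signalling was the list with the largest number of downregulated members. Of 94 tested ligands, receptors and regulators, 25 (26.6%) fell and 12 (12.8%) rose, against 3.60% and 12.0% over all genes. The share that rose was thus near that of all genes. Among ligands, *Fgf5*, a fibroblast growth factor, averaged 8.05 ± 0.451 CPM in *WT*, 0.0243 ± 0.0212 in *6KO1* and 0.879 ± 0.0539 in *6KO2*, and *Igf2*, an imprinted growth factor of the embryo, had 9.01, 8.73 and 10.8 CPM in *WT*, 0.313, 0.138 and 0.309 in *6KO1* and 0.981, 0.542 and 0.785 in *6KO2*. *Fgf7*, *Fgf10*, *Bmp4* and *Wnt5a* were downregulated also. Inhibitors fell too, with *Dkk2* of the Wnt pathway at 13.9 ± 1.88 CPM in *WT*, 0.0819 ± 0.0506 in *6KO1* and 1.38 ± 0.532 in *6KO2*. Of 13 tested genes in a Hedgehog list added after the values were seen, 3 (23.1%) fell and 0 rose by edgeR or DESeq2, with 3 higher at an unadjusted p under 0.05. *Gli2*, a transcription factor of the pathway, had 18.7, 11.8 and 15.6 CPM in *WT*, 0.660, 0.619 and 0.580 in *6KO1* and 1.55, 1.72 and 1.88 in *6KO2*, *Gli1*, a target and effector, went from 4.20 ± 0.201 CPM in *WT* to 0.251 ± 0.0372 in *6KO1* and 0.558 ± 0.0925 in *6KO2*, and *Gas1*, a coreceptor, from 65.0 ± 7.29 CPM in *WT* to 5.44 ± 0.443 in *6KO1* and 6.45 ± 0.428 in *6KO2*. The Hedgehog receptor gene *Ptch1* had log2 fold changes of -0.38 and -0.24 and was not called in either line. Among genes that rose, *Vegfc*, which drives lymphatic growth, went from 1.28 ± 0.129 CPM in *WT* to 17.9 ± 1.30 in *6KO1* and 16.7 ± 2.12 in *6KO2*, and *Igfbp7* went from 0.152 ± 0.0889 CPM in *WT* to 68.5 ± 2.32 in *6KO1* and 1.12 ± 0.455 in *6KO2*.

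Retinoid handling was divided. *Crabp1*, which carries retinoic acid in the cytoplasm, had 541, 699 and 551 CPM in *WT*, 0.764, 0.516 and 0.502 in *6KO1* and 21.7, 22.5 and 22.2 in *6KO2*. *Crabp2*, which delivers it to the nucleus, had 66.5, 90.9 and 67.3 CPM in *WT*, 4.06, 4.68 and 3.44 in *6KO1* and 4.66, 8.81 and 7.59 in *6KO2*. Both fell in all mutant libraries, and the fall of *Crabp1* was larger in *6KO1*, with a log2 difference between the lines of -5.20 (SE 0.17, adjusted p = 2.8e-17, edgeR). In the same list, which was added after the values were seen, 4 of 17 tested genes (23.5%) rose, or 2 without *WT* replicate 3 or *6KO2* replicate 3, and 2 (11.8%) fell. They included *Dhrs3*, which reduces retinal, with 0.0765 ± 0.0331 CPM in *WT*, 4.18 ± 0.263 in *6KO1* and 1.62 ± 0.237 in *6KO2*, and *Cyp26b1*, which degrades retinoic acid, with 0.0381 ± 0.0362 CPM in *WT*, 0.944 ± 0.0195 in *6KO1* and 0.574 ± 0.0789 in *6KO2*. Transcription factor genes of limb and trunk mesenchyme fell further in *6KO1*. *Osr1* averaged 14.9 ± 0.951 CPM in *WT*, 0.0373 ± 0.0387 in *6KO1* and 3.62 ± 0.467 in *6KO2*, *Tbx5* 9.78 ± 0.971 CPM in *WT*, 0.330 ± 0.148 in *6KO1* and 3.41 ± 0.772 in *6KO2*, and *Lmx1b* 4.61 ± 1.51 CPM in *WT*, 0.0359 ± 0.00236 in *6KO1* and 1.73 ± 0.301 in *6KO2*, with differences between the lines of -6.47, -3.34 and -5.41 on the log2 scale. *Alx1*, a homeobox gene of the cranial mesenchyme, was at 0 in all 6 mutant libraries, with 1.18 ± 0.309 CPM in *WT*, 0 in *6KO1* and 0 in *6KO2*, a fall of at least 33.5-fold and 27.8-fold against the floor of 3 counts. Of 46 tested mesenchymal transcription factors, 6 fell and 4 rose, and without *WT* replicate 1 the number that rose was 2.

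Among single genes ranked in this way, *Zfp422* led the falls. It had 12.3, 15.6 and 12.1 CPM in *WT*, 0.0347, 0 and 0 in *6KO1* and 0, 0 and 0 in *6KO2*, so that 1 count in *6KO1* and 0 in *6KO2* remained, and the fall in *6KO2* was at least 311-fold. *Gjb2*, the gap junction protein connexin 26, averaged 46.1 ± 3.73 CPM in *WT*, 0.0488 ± 0.0247 in *6KO1* and 0.731 ± 0.0817 in *6KO2*, *Hlf*, a circadian transcription factor, 16.9 ± 2.10 CPM in *WT*, 0.0245 ± 0.0213 in *6KO1* and 0.604 ± 0.158 in *6KO2*, and *Angptl7* 152 ± 21.2 CPM in *WT*, 0.0834 ± 0.0185 in *6KO1* and 8.02 ± 1.25 in *6KO2*. *Tet1*, which oxidizes 5-methylcytosine, had log2 fold changes of -4.42 in *6KO1* and -2.87 in *6KO2*. *Il1rl1*, the receptor for IL-33, went from 572 ± 149 CPM in *WT* to 78.8 ± 2.99 in *6KO1* and 209 ± 37.8 in *6KO2*. Of 34 tested clustered protocadherin genes, which give neurons their surface identity, 10 (29.4%) fell and 1 (2.94%) rose, against 3.60% and 12.0% over all genes. Among the 10, 7 were neighbours from *Pcdhb16* to *Pcdhb22*. *Pcdhb21* had 4.17, 5.38 and 4.44 CPM in *WT*, 0, 0 and 0 in *6KO1* and 0.163, 0.226 and 0.175 in *6KO2*, and *Pcdhb16* 1.73, 2.78 and 1.74 CPM in *WT*, 0, 0 and 0.0386 in *6KO1* and 0.123, 0.135 and 0.0436 in *6KO2*. Of 38 tested imprinted genes, 6 (15.8%) fell and 2 (5.26%) rose. *H19*, a noncoding RNA that lies beside *Igf2*, had 9.22, 9.23 and 10.3 CPM in *WT*, 0, 0 and 0 in *6KO1* and 0.490, 0.316 and 0.349 in *6KO2*, while *Peg3*, a paternally expressed zinc finger gene, rose from 0.0272 ± 0.0236 CPM in *WT* to 3.76 ± 0.0919 in *6KO1* and 1.66 ± 0.185 in *6KO2*.

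Many genes of the protein synthesis machinery passed the fold threshold in *6KO1* alone. Of 78 tested ribosomal protein genes, 0 were called in either direction in both lines, by edgeR or by DESeq2, while 76 were lower in the mean of both lines at an unadjusted p under 0.05. The median log2 fold change was -0.62, or -0.43 without *WT* replicate 2, and the summed level ranged from 18693 to 27667 CPM over the *WT* libraries. In *6KO1*, 26 of the 78 were called down, and in *6KO2* 0 were, against 10.2% and 5.39% over all genes. In a ribosome biogenesis list added after the values were seen, 4 of 58 fell, namely *Npm1*, *Ncl*, *Fbl* and *Dis3*, while 26 fell in *6KO1* and 4 in *6KO2* taken singly. The number in both lines was 1 without *WT* replicate 2, and 3 without *6KO2* replicate 1 or 2. Small nucleolar RNAs, which guide the modification of ribosomal RNA, were downregulated in both lines for 39 of 301 tested. A run of 5 downregulated neighbours on chromosome 2 (130275506 to 130278087) held *Snord110* and *Snord57*. Of 65 tested replication-dependent histone genes, 6 (9.23%) fell and 3 (4.62%) rose, against 3.60% and 12.0% over all genes. The number that fell was 9 without *WT* replicate 1, 4 without *WT* replicate 2 and 10 without *WT* replicate 3, and the number that rose was 2 without *WT* replicate 1 or 3 or *6KO2* replicate 1 or 3. The linker histone genes *Hist1h1b* and *Hist1h1d* went from 381 ± 33.7 CPM in *WT* to 118 ± 6.07 in *6KO1* and 155 ± 4.42 in *6KO2* and from 396 ± 29.5 CPM in *WT* to 160.4 ± 6.85 in *6KO1* and 162 ± 2.63 in *6KO2*, respectively.

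**Figure D3:**
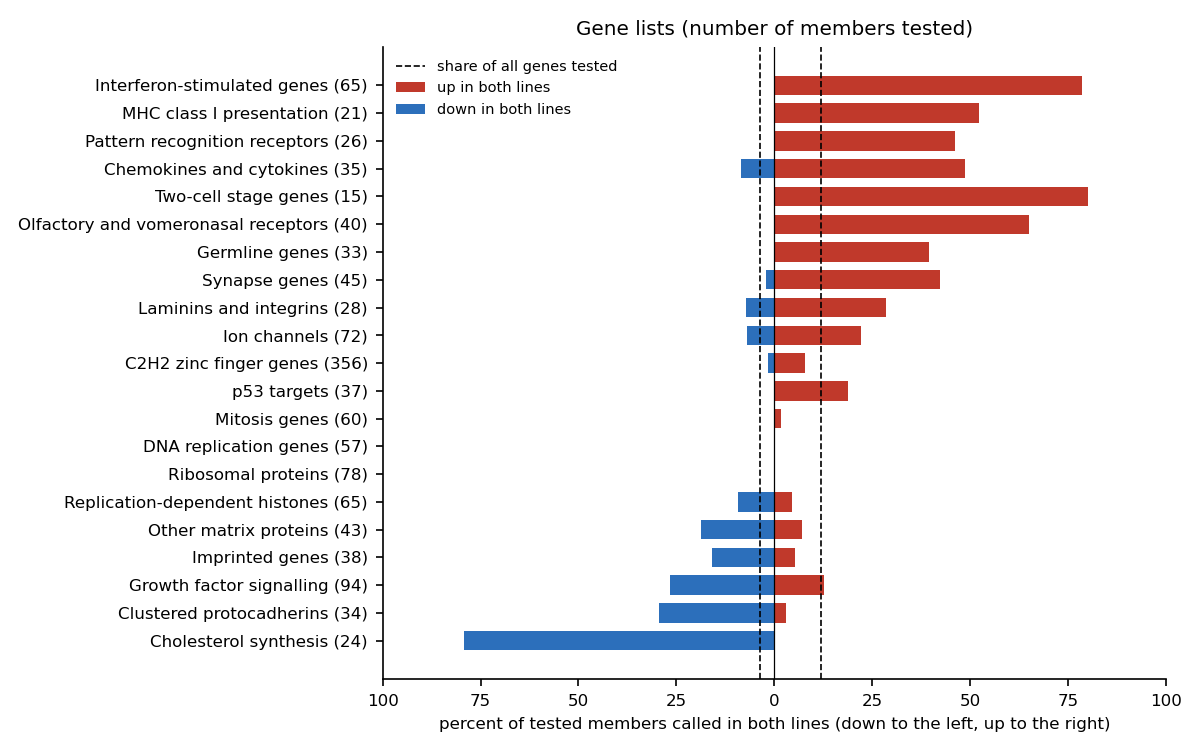
Share of tested members called up (right) and down (left) in both lines for each gene list, beside the share of all tested genes (12.0% up and 3.60% down, dashed). Interferon-stimulated genes (51 of 65) and two-cell stage genes (12 of 15) stand out to the right, and cholesterol synthesis (19 of 24) to the left.

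Among cell cycle regulators, the inhibitory genes *Cdkn1a* and *Rb1* rose. Of 18 tested genes for CDKs, their cyclins and inhibitors and the pocket proteins, 2 (11.1%) rose and 2 (11.1%) fell in both lines, against 12.0% and 3.60% over all genes, or 3 and 1 without *WT* replicate 2. In *6KO1* taken singly, 3 rose and 6 fell. *Cdkn1a*, which encodes the CDK inhibitor p21, had 8.59, 8.04 and 8.21 CPM in *WT*, 129, 133 and 128 in *6KO1* and 42.5, 40.4 and 41.5 in *6KO2*. Its log2 fold change was 3.97 (SE 0.067) in *6KO1* and 2.32 (SE 0.066) in *6KO2* (adjusted p = 7.3e-23 and 1.6e-18, edgeR), larger in *6KO1* by 1.65 (SE 0.058, adjusted p = 1.5e-16, edgeR). *Rb1*, which holds cells before S phase, had 12.5, 10.8 and 12.3 CPM in *WT*, 47.6, 46.5 and 51.5 in *6KO1* and 32.2, 33.4 and 32.1 in *6KO2*. All mutant libraries were above *WT* for both. *Trp53inp1*, a p53 target that promotes cell death, rose from 9.65 ± 1.10 CPM in *WT* to 179 ± 7.52 in *6KO1* and 49.0 ± 1.65 in *6KO2*, and *Fas*, a death receptor, from 2.11 ± 0.363 CPM in *WT* to 33.2 ± 2.28 in *6KO1* and 19.7 ± 0.749 in *6KO2*. Of 37 tested p53 targets, 7 (18.9%) rose, against 12.0% over all genes, and 0 fell by edgeR or DESeq2, with a median log2 fold change of 0.61 and 5 genes lower at an unadjusted p under 0.05. Among kinases, *Cdk4* and *Cdk1* averaged 577 ± 73.5 CPM in *WT*, 206 ± 7.91 in *6KO1* and 336 ± 7.08 in *6KO2* and 359 ± 82.6 CPM in *WT*, 167 ± 9.42 in *6KO1* and 232 ± 1.88 in *6KO2*, respectively, and both were called in *6KO1* alone. *Cdk6* and *Cdk7* also passed in *6KO1* alone, with log2 fold changes of -1.11 and -0.38 for *Cdk6* and -1.14 and -0.87 for *Cdk7*, while *Cdk2*, at -0.97 and -0.49, passed in neither line. *Ccnd2*, a D-type cyclin, fell in both lines from 299.6 ± 21.0 CPM in *WT* to 18.3 ± 0.724 in *6KO1* and 113 ± 1.53 in *6KO2*. *Cdkn2b*, another CDK inhibitor gene, fell from 56.8 ± 4.43 CPM in *WT* to 27.6 ± 0.739 in *6KO1* and 26.2 ± 1.29 in *6KO2*, a shared call that was lost without *WT* replicate 2.

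Of 60 tested mitosis genes, 1 rose and 0 fell, and of 57 DNA replication genes, 0 were called in both lines. DESeq2 also called 0 mitosis genes down and 0 replication genes. At an unadjusted p under 0.05 for the mean of both lines, 39 mitosis genes were lower and 7 higher, and 30 replication genes were lower and 9 higher. The one mitosis gene that rose was *Foxm1*, a transcription factor of the G2/M program, with 69.9, 50.2 and 62.5 CPM in *WT*, 180.4, 156 and 157 in *6KO1* and 192, 199 and 181 in *6KO2*. Of 43 tested cell death and PARP genes, 7 (16.3%) rose and 1 fell, and of 52 MAP kinase genes, 6 (11.5%) rose and 4 fell, shares near the 12.0% up and 3.60% down over all genes. *Casp1* and *Casp4*, the inflammatory caspases, rose in both lines, with 0 CPM in *WT*, 1.21 ± 0.294 in *6KO1* and 0.544 ± 0.0958 in *6KO2* for *Casp1* and 4.30 ± 0.875 CPM in *WT*, 32.8 ± 2.59 in *6KO1* and 17.7 ± 3.35 in *6KO2* for *Casp4*. *Mapk10*, the JNK3 kinase gene, had 0, 0.0361 and 0.0396 CPM in *WT*, 23.6, 22.2 and 23.6 in *6KO1* and 2.57, 2.35 and 2.75 in *6KO2*. *Mapk4*, an atypical kinase, rose more in *6KO2*, with 0 CPM in *WT*, 3.17 ± 0.235 in *6KO1* and 12.2 ± 1.10 in *6KO2*. *Pik3r5*, a PI3K regulatory subunit, rose from 4.42 ± 0.670 CPM in *WT* to 27.3 ± 2.98 in *6KO1* and 26.1 ± 3.71 in *6KO2*. *Mapk11* was not called in either line, at -0.99 and -0.18. The immediate early genes *Fos* and *Fosb* fell from 27.8 ± 11.3 CPM in *WT* to 6.29 ± 0.153 in *6KO1* and 3.86 ± 0.989 in *6KO2* and from 30.4 ± 18.6 CPM in *WT* to 7.40 ± 0.523 in *6KO1* and 4.62 ± 0.720 in *6KO2*, respectively.

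Repeat elements were upregulated in both lines for 259 of 1207 tested (21.5%) and downregulated for 15 (1.24%). Among LTR elements, 125 of 270 ERVK (46.3%) and 46 of 105 ERV1 elements (43.8%) rose, against 9 of 92 ERVL and 2 of 92 MaLR elements. *MMERVK10D3_I-int*, an internal region of an ERVK provirus, had 5.22, 4.36 and 4.60 CPM in *WT*, 1509.8, 1560.4 and 1594 in *6KO1* and 2139.5, 1853 and 1843 in *6KO2*. Its log2 fold changes were 8.36 (SE 0.14) in *6KO1* and 8.68 (SE 0.14) in *6KO2* (adjusted p = 5.6e-41 and 3.6e-41, edgeR). *RLTR10D2*, an ERVK LTR, had 0.926, 0.902 and 0.991 CPM in *WT*, 202, 214 and 216 in *6KO1* and 297, 274 and 264 in *6KO2*. For both elements *6KO2* was above *6KO1*, by less than the fold threshold. Major satellite, *GSAT_MM*, had 10.8, 11.2 and 9.95 CPM in *WT*, 1178, 997 and 1146 in *6KO1* and 455, 394 and 463 in *6KO2*, and here *6KO1* was higher, by 1.34 on the log2 scale. The LINE element *L1MdA_II_5end_ORF1only* had 0.800, 0.902 and 1.07 CPM in *WT*, 29.4, 24.8 and 27.8 in *6KO1* and 10.5, 13.6 and 10.3 in *6KO2*, also higher in *6KO1*. A repeat count sums over all copies of an element, so which copies were transcribed cannot be read from it. Repeat counts took 12.5% to 13.7% of all counts in *WT*, 21.5% to 21.9% in *6KO1* and 18.1% to 18.8% in *6KO2*. tRNA-derived elements fell, with 12 of 47 called.

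**Figure D4:**
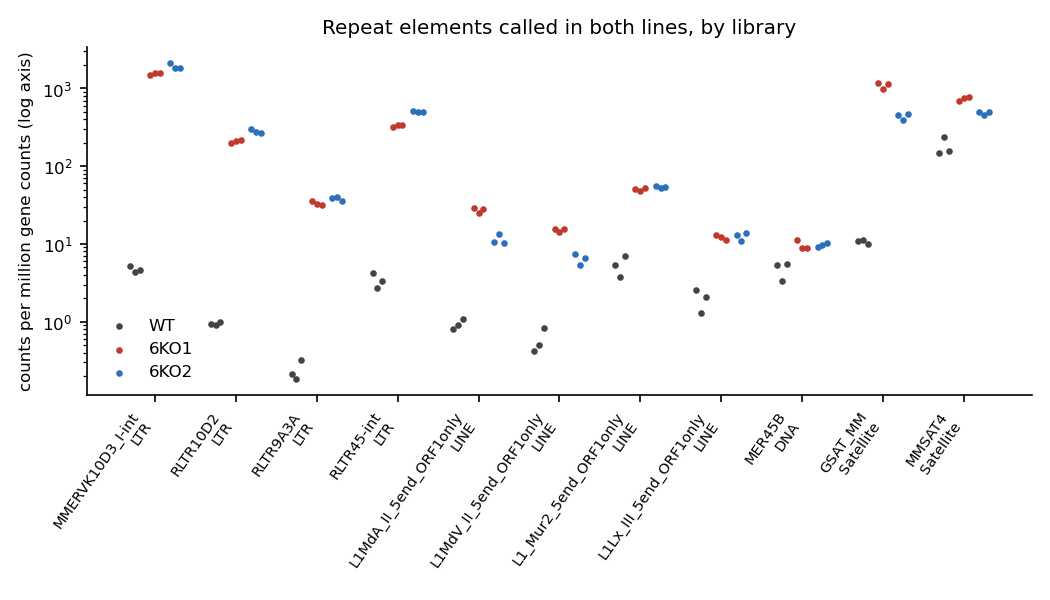
Level of the named repeat elements in each of the 9 libraries, as CPM of gene counts on a log axis. Points are libraries, coloured by group; all mutant libraries lie above *WT* for *MMERVK10D3_I-int*, *RLTR10D2*, *GSAT_MM* and the other elements shown.

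Among genes that passed the expression filter, lincRNA and antisense genes rose at higher shares than protein-coding genes. Of 500 tested lincRNA genes, 184 (36.8%) rose in both lines, and of 420 antisense genes, 121 (28.8%), against 1569 of 13491 protein-coding genes (11.6%). Among unprocessed pseudogenes, 43 of 102 rose (42.2%). Tested were 500 of 3543 lincRNA genes, 420 of 2359 antisense genes and 102 of 2223 unprocessed pseudogenes, against 13491 of 21697 protein-coding genes. Genes silent in *WT* could pass the filter only where another condition was higher. The filter therefore favours rises in classes that are mostly silent, and the shares are not directly comparable. The strand used in counting is not given in the sources used here, so that antisense transcripts and their overlapping genes may not be separated. Exons of 24.8% of the upregulated genes overlap an exon on the opposite strand, against 26.6% of all tested genes. By chromosome, the median log2 fold change in *6KO1* was lowest on chromosome 10, at -0.50, and highest on chromosome 19, at 0.52. The same chromosomes had medians of -0.16 and 0.28 in *6KO2*. The 26 genes of the mitochondrial genome had medians of -0.80 and -0.68.

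**Figure D5:**
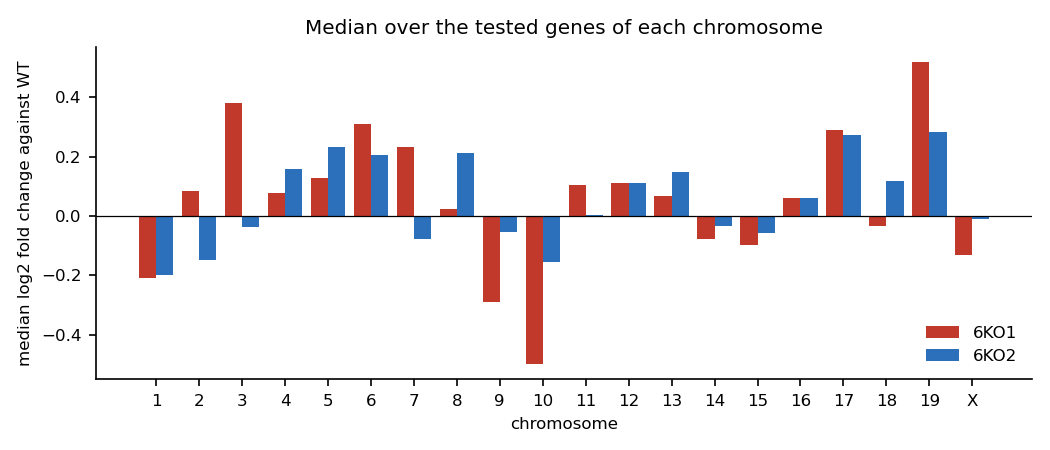
Median log2 fold change against *WT* of the tested genes on each chromosome, for *6KO1* and *6KO2*. Chromosome 10 (-0.50 in *6KO1* and -0.16 in *6KO2*) and chromosome 19 (0.52 and 0.28) lie farthest from 0 in *6KO1* among the nuclear chromosomes.

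The lines differed in the size of the change at part of the shared genes. Tested against each other, *6KO1* and *6KO2* differed at 3131 genes (16.9%), with 1813 higher in *6KO1* and 1318 higher in *6KO2*. Of the 2237 genes upregulated in both, 700 (31.3%) were higher in *6KO1*, 195 (8.72%) were higher in *6KO2*, and 1342 (60.0%) showed no called difference. Of the 669 downregulated in both, 174 (26.0%) were lower in *6KO1* and 19 (2.84%) were lower in *6KO2*. Opposite calls were found for 28 genes up in *6KO1* and down in *6KO2* and for 71 genes with the reverse pattern. *Gas7*, a growth arrest gene, averaged 1.37 ± 0.0887 CPM in *WT*, 4.98 ± 0.309 in *6KO1* and 0.0728 ± 0.0277 in *6KO2*, and *Tprg* averaged 0.434 ± 0.186 CPM in *WT*, 3.28 ± 0.259 in *6KO1* and 0.0136 ± 0.0236 in *6KO2*. In the other direction, *Gspt2*, a translation termination factor, averaged 0.810 ± 0.356 CPM in *WT*, 0.0230 ± 0.020 in *6KO1* and 9.51 ± 0.797 in *6KO2*. *Tnfsf15*, a TNF family cytokine, averaged 0.391 ± 0.180 CPM in *WT*, 0 in *6KO1* and 3.98 ± 0.785 in *6KO2*. Of the genes with opposite calls named here, *Gas7* and *Tprg* were near 0 in *6KO2*, and *Gspt2* and *Tnfsf15* in *6KO1*.

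Summed epithelial, endothelial and muscle markers were higher in both lines than in *WT*, without overlap. Of 8 tested epithelial markers, 5 rose and 1 fell. *Krt19*, a keratin of simple epithelia, had 6.19, 7.86 and 6.15 CPM in *WT*, 34.8, 38.5 and 37.5 in *6KO1* and 85.5, 98.6 and 85.9 in *6KO2*, and *Grhl2*, a transcription factor of epithelial cells, averaged 0.0252 ± 0.0219 CPM in *WT*, 7.38 ± 0.365 in *6KO1* and 20.6 ± 1.35 in *6KO2*, while *Epcam* fell from 0.436 ± 0.135 CPM in *WT* to 0.0578 ± 0.0724 in *6KO1* and 0.0737 ± 0.0670 in *6KO2*. The summed epithelial markers were 9.22 to 11.0 CPM in *WT*, 74.1 to 78.6 in *6KO1* and 133 to 145 in *6KO2*. Of 6 tested endothelial markers, 4 rose, with sums of 0.974 to 1.31, 8.49 to 9.93 and 5.52 to 7.77 CPM, and *Cldn5*, *Emcn* and *Erg* were at 0 in all 9 libraries. Muscle markers summed to 3.01 to 3.61, 14.4 to 15.7 and 7.03 to 8.26 CPM. Pluripotency markers summed to 0.253 to 0.716, 0.618 to 1.42 and 0.735 to 1.08 CPM, with *Tdgf1*, *Utf1* and *Zfp42* at 0, and 1 of 3 tested, *Dppa5a*, rose, with 0 CPM in *WT*, 0.482 ± 0.197 in *6KO1* and 0.162 ± 0.116 in *6KO2*, a shared call that was lost without any 1 of the *WT* libraries or *6KO2* replicate 2 or 3. The part of these cell types in the results was not tested.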

How the data were processed

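RNA-seq libraries of MEFs were used, 3 each of *WT*, *6KO1* and *6KO2*. Reads were trimmed with cutadapt 1.8.1, aligned to GRCm38 with STAR 2.5.2b and counted on genes and repeat elements with TEtranscripts, and the authors deposited whole-number counts without normalization (47937 genes, 1445 repeat elements, and 1 malformed entry left out here). TEtranscripts divides a read that fits several copies of an element between them. Library preparation was stranded, but the counting strand is not given in the sources used here. The versions are those of the submitters' processing notes.

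Low counts were filtered by condition (filterByExpr), and edgeR 4.0.16 (quasi-likelihood test, TMM factors, R 4.3.3) was fitted to all 24 libraries with 1 coefficient per condition, so that 8 conditions share the estimate of spread. Tests were two-sided, with Benjamini-Hochberg adjustment over 18565 genes or 1207 repeat elements, and genes were called at a log2 fold change of 1 or more in size, with adjusted p not above 0.01. Repeats were scaled with the gene library sizes. Differences between the lines come from the same fit. The fits were tested on simulated counts. Positions are GRCm38, and promoters are from RefSeq (GRCm38.p6), with 11111 of the tested genes matched.

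Named genes were, among genes called in both lines with no overlap with *WT*, those with the largest smaller fold change (with a mean normalized count of at least 100), those with the highest mean level and the leading 4 per list and direction. Some genes that the rule names are not reported here. Added to these were genes with opposite calls, the targeted genes and genes that the study discusses. Other genes named, and those read from a list or run without a value, were chosen after their values were seen. The members and gene lists were chosen with earlier results of these data known. Lists are described by counts and medians, without a set test.

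Alternatives were DESeq2 1.42.0, RLE factors, no low-count filter, a mean count above 100, no fold minimum, only the 9 libraries, a replicate block, other repeat factors, and each library left out in turn. Replicate numbers were not taken to pair the samples in the main fit. Intervals and floors cover counting error only. The replicates are labelled as biological replicates of single clones, so p-values measure the spread between cultures of a clone.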

Additional observations from a re-analysis of the deposited data

Results flagged for a closer look

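Of 151 named genes, 69 differed between the lines by a log2 difference (*6KO1* minus *6KO2*) of at least 1 in size at an adjusted p of at most 0.01 in the edgeR test of *6KO1* against *6KO2*, with 39 higher in *6KO1* and 30 higher in *6KO2*. Over all tested genes, 16.9% differed in this way. The named genes were chosen in part by the size of their change, so their share does not measure how far the lines differ. *Tprg*, *Gas7*, *Gspt2* and *Tnfsf15* were named for their opposite calls, which fixed their flag in advance.

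Among the genes of antiviral defence the difference was 3.13 for *Irf7*, 1.63 for *Irf9*, 1.04 for *Ddx58*, 1.97 for *Ifit1*, 2.53 for *Rsad2*, 4.27 for *Trim30a*, 4.34 for *Oas3*, 3.06 for *Iigp1* and 2.36 for *Zbp1*, and in antigen presentation it was 2.70 for *Nlrc5* and 2.50 for *H2-D1*. Both lines were above *WT* for each of these genes, and *6KO1* was higher. Chemokines and cytokines gave -2.0 for *Ccl20*, -6.51 for *Cxcl14* and -4.12 for *Tnfsf11*, so *6KO2* was higher for all 3.

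For silent genes and germline genes the difference was 1.16 for *Zfp985*, 1.18 for *Zfp990*, 2.37 for *Pcdh10*, 2.75 for *Cdh19*, 1.27 for *Tdrd9*, 2.39 for *Dppa4*, 1.46 for *Dppa2*, 1.89 for *Mageb2*, 1.64 for *Rhox5* and 1.18 for *Peg3*. Genes of growth arrest and cell death gave 1.65 for *Cdkn1a*, 1.87 for *Trp53inp1*, 1.15 for *Casp1* and -2.63 for *Ccnd2*, and kinase genes -1.94 for *Mapk4* and 3.17 for *Mapk10*. For adhesion, matrix and detoxification genes the values were 1.95 for *Gsta1*, 3.44 for *Col28a1*, 1.53 for *Itgam*, -1.53 for *Lyz2*, 3.20 for *Lama3*, -3.05 for *Mmp13*, 2.0 for *Fap*, 1.59 for *Ogn* and 1.53 for *Serpinf1*, and for ion channel and synapse genes 1.26 for *Kcnk10*, -1.97 for *Cacna1g*, -4.10 for *Cacna1c* and -3.53 for *Shank3*.

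Growth factor, Hedgehog and imprinted genes gave 5.91 for *Igfbp7*, -1.61 for *Igf2*, -3.98 for *Dkk2*, -4.94 for *Fgf5*, -1.46 for *Gli2*, -1.14 for *Gli1* and -6.31 for *H19*. Retinoid genes gave 1.36 for *Dhrs3* and -5.20 for *Crabp1*, and transcription factors of mesenchyme and epithelium -6.47 for *Osr1*, -3.34 for *Tbx5*, -5.41 for *Lmx1b*, -4.40 for *Hlf* and -1.48 for *Grhl2*. Other genes gave -3.81 for *Gjb2*, -6.50 for *Angptl7*, 1.09 for *Scd2*, -1.41 for *Il1rl1*, -5.28 for *Pcdhb21*, -1.55 for *Tet1* and -1.29 for *Krt19*. Of the targeted genes, *Suv39h2* differed, at 1.10. Genes with opposite calls gave 7.41 for *Tprg*, 6.02 for *Gas7*, -8.37 for *Gspt2* and -9.66 for *Tnfsf15*. A fitted difference of a gene at or near 0 in one line depends on the prior count and is no bound.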

How the results depend on the processing

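Genes called in both lines numbered 2237 up and 669 down in the analysis reported above. The counts were 2146 and 636 with DESeq2, 2247 and 653 with RLE factors, 2405 and 784 without the low-count filter, and 2043 and 639 with only the 9 libraries. With each library left out in turn they ranged from 2034 to 2180 up and from 619 to 735 down. The range was 3137 to 3254 up and 1197 to 1415 down for the mean of both lines, 2962 to 3177 for the difference between the lines, and 219 to 283 up and 13 to 20 down for repeat elements. With a mean count above 100, the counts were 713 up and 292 down in both lines, 1018 up and 584 down in the mean, and 1049 between the lines, with fewer genes tested. Without a fold minimum they were 4126, 3441, 6303, 5581 and 9136, and 433 repeat elements rose and 35 fell. With factors from the repeats alone, 176 repeat elements rose and 43 fell. A replicate block gave 2200 genes up and 662 down, 3272 up and 1324 down in the mean, 3105 between the lines, and 260 repeat elements up and 15 down. Samples of the same number did not deviate together throughout, with correlations of -0.15 to 0.41, against -0.46 to 0.29 for samples of unlike number. The highest was that of *WT* replicate 1 with *6KO1* replicate 1. No label pairs the samples, so the block rests on a shared number alone. Named genes reversed direction under 0 of these alternatives. Depth limits genes near the floor of 3 counts over a group, where a fold change is a bound.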
